A study of Homo sapiens with 4 samples.

Results

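Collagen is modified, folded and cross-linked by a small set of enzymes, and the mRNA levels of 10 of their genes were described in RAS-induced human fibroblasts in which either the enhancer EnhAP1-OIS1 or the FOXF1 gene had been targeted. The genes are the lysyl oxidases LOX, LOXL1, LOXL2, LOXL3 and LOXL4, the lysyl hydroxylases PLOD1 and PLOD2, the prolyl 4-hydroxylase subunits P4HA1 and P4HA2, and the collagen chaperone SERPINH1. They were chosen by symbol from the 12033 genes listed, and 10 of 10 were found. Levels are in RPKM, reads per kilobase of transcript scaled to library size, and genes whose mean over the 4 libraries reached 2 RPKM were compared, 7596 in number, and the 10 genes were among them. BJ cells are hTERT-immortalized human fibroblasts, here carrying an inducible RASG12V. In these cells 4-hydroxytamoxifen (4-OHT) switches the oncogene on, and each library was made after 14 days of 4-OHT, the control included. Cells had received a CRISPR-Cas9 vector with sgRNA-AP1-69 or sgRNA-AP1-71 (guide 69 and guide 71 below), which cut at the AP-1 site of EnhAP1-OIS1, with sgRNA-FOXF1 against the FOXF1 gene, or with the non-targeting sgRNA-NT. The sources describe transduction and antibiotic selection of these cells and name no clone, so each library can hold a mixture of edited alleles. The study sought enhancers needed for oncogene-induced senescence, the arrest that RASG12V triggers in these cells. With 1 library per condition, no difference below has a replicate error and none was tested. Series of 3 values for the targeted libraries are for guide 69, guide 71 and sgRNA-FOXF1.

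The enzymes act in sequence. In the endoplasmic reticulum, prolyl 4-hydroxylases hydroxylate proline residues that hold the collagen triple helix together, and lysyl hydroxylases (the PLOD genes) hydroxylate lysine residues. The product of SERPINH1, also called HSP47, binds the folded procollagen helix. After secretion, the copper-dependent lysyl oxidases oxidize lysine and hydroxylysine residues of collagen and elastin, from which covalent cross-links form.

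The promoter windows of LOX, PLOD2 and LOXL4 are shown because they stand for 3 patterns described below: lowest with guide 71 (LOX), lowest with sgRNA-FOXF1 (PLOD2) and higher in each targeted library (LOXL4). Each window holds 250 bases before to 50 bases after a RefSeq transcription start of GRCh38.p14 and is written along the gene's own strand, here the minus strand. Capitals mark the letters ACGTG, on either strand, a form of the core of the hypoxia response element. Other forms of that core, such as GCGTG, were not searched for and are not marked. The LOX window is chr5:122078210-122078509, the PLOD2 window chr3:146161135-146161434 and the LOXL4 window chr10:98268145-98268444.
LOX: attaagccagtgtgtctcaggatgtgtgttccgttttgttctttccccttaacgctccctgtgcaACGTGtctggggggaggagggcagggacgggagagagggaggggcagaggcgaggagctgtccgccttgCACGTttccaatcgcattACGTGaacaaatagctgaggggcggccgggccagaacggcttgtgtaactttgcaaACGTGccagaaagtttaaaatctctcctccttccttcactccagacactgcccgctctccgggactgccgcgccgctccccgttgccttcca
PLOD2: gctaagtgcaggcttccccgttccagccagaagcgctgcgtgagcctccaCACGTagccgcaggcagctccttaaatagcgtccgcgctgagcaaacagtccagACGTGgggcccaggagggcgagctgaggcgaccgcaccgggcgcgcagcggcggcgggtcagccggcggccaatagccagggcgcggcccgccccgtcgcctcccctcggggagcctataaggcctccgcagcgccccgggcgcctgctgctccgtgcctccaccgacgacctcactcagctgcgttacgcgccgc
LOXL4: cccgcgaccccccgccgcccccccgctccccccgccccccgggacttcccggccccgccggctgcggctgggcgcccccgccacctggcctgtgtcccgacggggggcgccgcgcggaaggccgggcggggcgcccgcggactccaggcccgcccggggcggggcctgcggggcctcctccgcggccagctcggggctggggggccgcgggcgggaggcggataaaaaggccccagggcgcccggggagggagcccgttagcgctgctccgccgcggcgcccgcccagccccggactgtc

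These letters occurred 4 times in the LOX window shown, the one of its 3 windows with the most, 2 times in that of PLOD2 and 0 times in that of LOXL4. Windows were read for 9 of the 10 genes, 13 windows in all, since LOXL2 was left out. ACGTG was present in a window of 4 of the 9 genes (LOX, PLOD2, P4HA1 and SERPINH1), beside 24.9% of 27305 genes. Counted by window, it was in 7 of the 13, some of which overlap, beside 21.4% of 35116 windows of all genes. The AP-1 letters TGACTCA were in 0 of the 13 windows and in 4.95% of all windows. The forkhead letters TGTTTAC were likewise in 0 of 13 and in 3.42% of all windows. A match of letters is a description of the window and says nothing about binding.

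As a check of the series, FOXF1 mRNA was at 11.1 RPKM with guide 69, 7.8 with guide 71 and 25.0 with sgRNA-FOXF1, against 29.6 with sgRNA-NT. Transcripts with small insertions or deletions still count as FOXF1, so the level with sgRNA-FOXF1 does not check that label. Because RPKM are per length, levels of different genes can be set side by side. They were quantile-normalized by the authors, and read counts and depth are unknown. HRAS mRNA was at 446.4, 427.4 and 707.6 RPKM with guide 69, guide 71 and sgRNA-FOXF1, against 829.4 with sgRNA-NT. The 13 messages of the mitochondrial genome had median log2 ratios to sgRNA-NT of -1.02, -1.54 and -0.77 in the same order. Of 14 fibroblast markers, 14 were listed and FAP was at the floor of 1 RPKM in each library. Their summed level was 5302.4, 5465.6 and 5244.9 RPKM in the targeted libraries and 3796.7 with sgRNA-NT, with COL1A1, COL1A2, DDR2, PDGFRA and FN1 lower by 1.5-fold or more with both enhancer guides. The sum was carried by S100A4 (2053.4, 2295.5 and 1965.9 RPKM, against 1166.9 with sgRNA-NT), which was called higher in each targeted library, and VIM (2644.9, 2644.9 and 2382.4 RPKM, against 1775.3), which was higher but not called. Of 20 epithelial, endothelial, leukocyte and melanocyte markers, 2 were listed: KRT8 (8.6, 7.6 and 10.2 RPKM in the targeted libraries, 4.5 with sgRNA-NT) and CD14 (7.9, 8.5 and 6.0 RPKM in the targeted libraries, 9.8 with sgRNA-NT). The part of any of these in the values below was not tested. In bulk RNA, fewer cells with a message and less message per cell cannot be told apart.

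The 10 genes did not move as a block. With sgRNA-NT, LOXL2 was the most abundant at 356.8 RPKM, followed by PLOD1 at 159.5 RPKM, and LOXL4 was the least abundant at 8.2 RPKM. LOX, LOXL2, PLOD1 and PLOD2 (4 genes) were below their sgRNA-NT level in each of the 3 targeted libraries. LOXL3, LOXL4 and SERPINH1 (3 genes) were above it in each. LOXL1, P4HA1 and P4HA2, the other 3, were above it in some targeted libraries and below it in others. The highest of the 4 levels belonged to sgRNA-FOXF1 for 6 genes and to sgRNA-NT for 4 genes, and to an enhancer guide for 0 genes. Of the 7596 compared genes, 3232, 3282 and 3370 were below sgRNA-NT with guide 69, guide 71 and sgRNA-FOXF1, each taken singly. The number below or above it in all 3, or highest in a given library, is not given for them. The 3 ratios share the sgRNA-NT library, so these counts only describe the 10 genes.

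**Figure D1:**
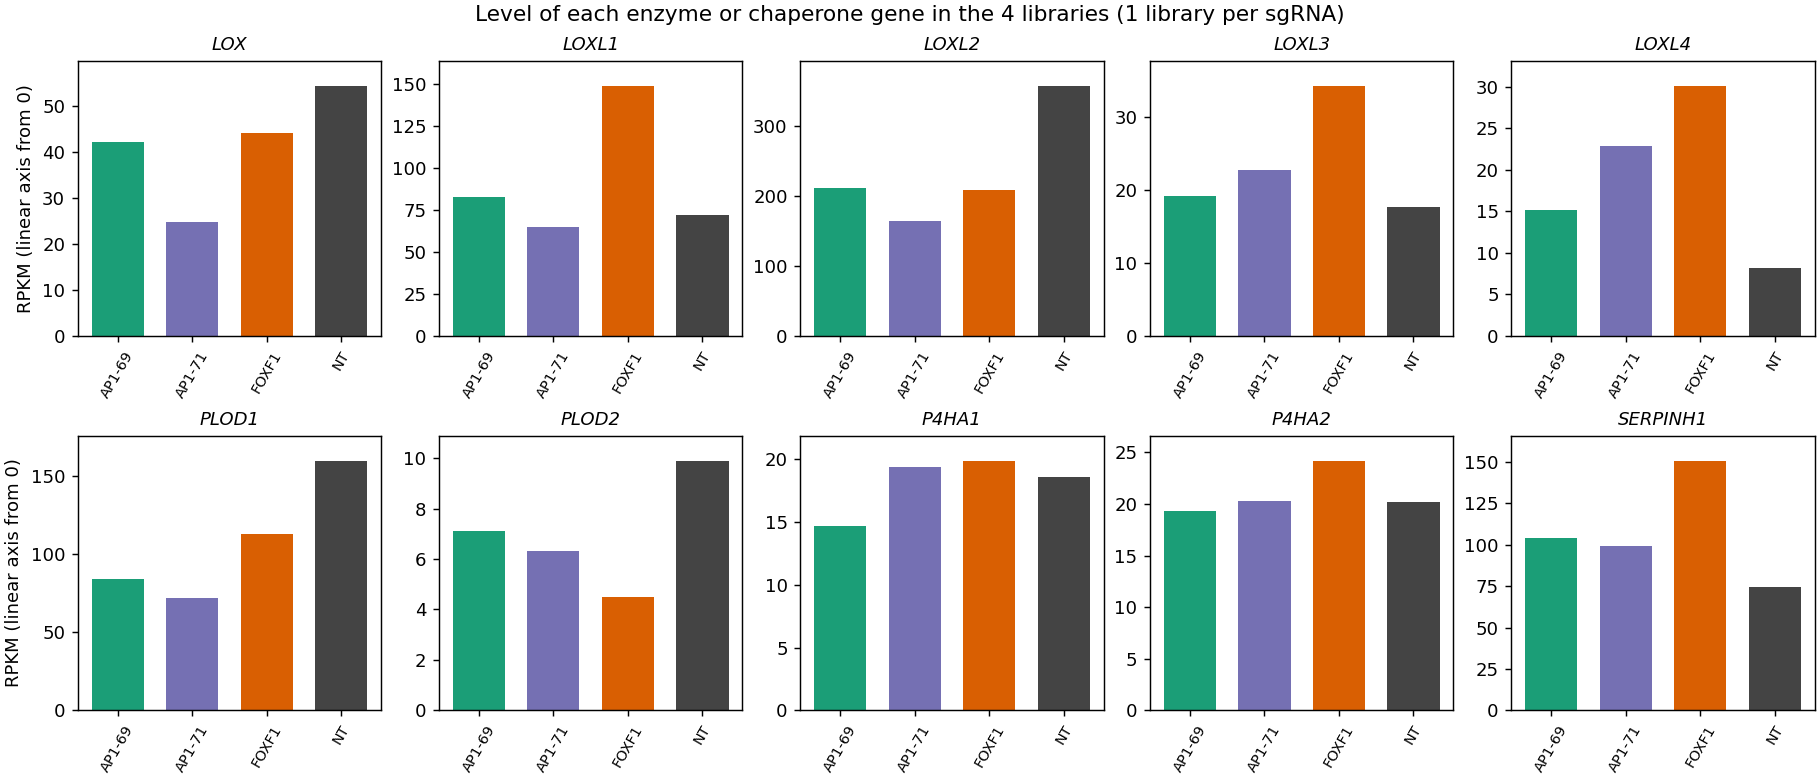
Level of each of the 10 genes in RPKM (vertical axis, linear from 0, a scale of its own in each panel) in the libraries with sgRNA-AP1-69, sgRNA-AP1-71, sgRNA-FOXF1 and sgRNA-NT, 1 bar per library and no error bars because each condition has 1 library. LOX, LOXL2, PLOD1 and PLOD2 have their tallest bar with sgRNA-NT, and the other 6 genes have it with sgRNA-FOXF1.

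A difference was called at 1.5-fold, and each count is read beside the percent of the 7596 compared genes called by the same rule. With guide 69, 1 gene was called higher than with sgRNA-NT (LOXL4, against 8.18% of compared genes), and 2 genes were called lower (LOXL2 and PLOD1, against 9.93%). With guide 71, LOXL4 was the 1 gene called higher (14.0% of compared genes). LOX, LOXL2, PLOD1 and PLOD2 were the 4 called lower (14.7%). With sgRNA-FOXF1, 4 genes were called higher (LOXL1, LOXL3, LOXL4 and SERPINH1, against 11.6% of compared genes), and 2 were called lower (LOXL2 and PLOD2, against 13.2%). LOXL4 was called higher in all 3 targeted libraries, as were 4.98% of compared genes, and LOXL2 was called lower in all 3, as were 5.85%. These 3 comparisons share the single sgRNA-NT library, so they are not independent of each other. The median log2 ratio of the 10 genes was -0.20, -0.07 and 0.18 with guide 69, guide 71 and sgRNA-FOXF1, beside 0.07, 0.08 and 0.06 over the compared genes. At 10 genes, a count of 1 or 2 lies near the background. The same percentages are the ones to set beside the counts called in other gene lists below.

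**Figure D2:**
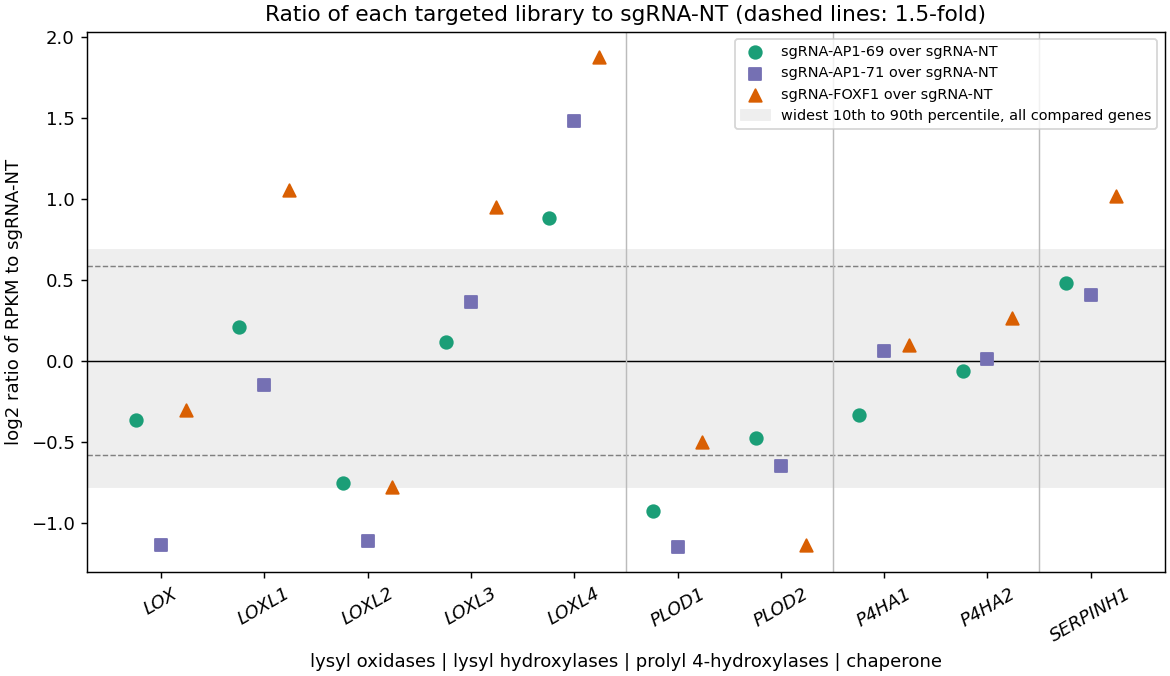
Log2 ratio of RPKM of each targeted library to sgRNA-NT (vertical axis) for the 10 genes, with circles for guide 69, squares for guide 71 and triangles for sgRNA-FOXF1; dashed lines mark 1.5-fold, and the grey band spans -0.78 to 0.68, the widest 10th to 90th percentile of the 7596 compared genes. LOXL4 lies above the band in each library, up to 1.88, while P4HA1 and P4HA2 stay within 0.34 of 0.

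LOXL4 was higher in each targeted library, and with guide 71 and sgRNA-FOXF1 it was the gene of the set farthest from its sgRNA-NT level. It encodes a secreted lysyl oxidase whose amino-terminal part carries scavenger receptor domains, as in LOXL2 and LOXL3. LOXL4 (ENSG00000138131, chromosome 10 from 100007447 to 100027951 on the minus strand of GRCh37) was at 15.1 RPKM with guide 69, 22.9 with guide 71 and 30.1 with sgRNA-FOXF1, against 8.2 with sgRNA-NT. These levels were 1.84-fold, 2.79-fold and 3.67-fold higher, or log2 ratios of 0.88, 1.48 and 1.88. From the top of the 7596 compared genes, they ranked 152nd, 68th and 41st. The enhancer guides differed from each other by a log2 of 0.60, more than the SD of that difference over the compared genes (0.29), which serves below as the yardstick between libraries with a shared target.

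LOXL2 was lower in each targeted library while remaining the most abundant of the 10 genes. This lysyl oxidase cross-links collagen type IV among other substrates. LOXL2 (ENSG00000134013, chromosome 8 from 23154410 to 23282841, minus strand) was at 211.2, 164.6 and 207.7 RPKM with guide 69, guide 71 and sgRNA-FOXF1, against 356.8 RPKM with sgRNA-NT. The folds were 1.69, 2.17 and 1.72 lower, with log2 ratios of -0.76, -1.12 and -0.78. The 3 targeted libraries lay closer to each other than any of them lay to sgRNA-NT. LOXL2 stood at rank 101 of the 12033 genes by level with sgRNA-NT, and at ranks 183, 237 and 185 in the targeted libraries. The gene's span overlaps that of ENTPD4 on its own strand, whose level was 6.8, 7.6 and 5.4 RPKM in the targeted libraries and 9.1 RPKM with sgRNA-NT.

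LOX itself was lower with guide 71 in particular. LOX is the founding lysyl oxidase, secreted as a proenzyme and processed outside the cell. LOX (ENSG00000113083, chromosome 5 from 121398890 to 121414108, minus strand) was at 42.2 RPKM with guide 69, 24.7 with guide 71 and 44.0 with sgRNA-FOXF1, against 54.3 with sgRNA-NT. Its level with guide 71 was 2.20-fold lower than with sgRNA-NT (log2 ratio -1.14), whereas the ratios with guide 69 and sgRNA-FOXF1 were -0.36 and -0.30 and were not called. The mean over the enhancer guides was -0.75 (SD 0.55, n = 2 guides), the widest split of the 10 genes. Between the guides the log2 ratio of guide 71 over guide 69 was -0.77, ranking 68th from the lowest of 7596 genes. LOX has the longest canonical transcript of the set (5076 nt), and the overlapping gene SRFBP1 on the opposite strand was between 1.0 and 1.1 RPKM in the 4 libraries.

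LOXL1 and LOXL3 were called higher with sgRNA-FOXF1 and were not called with either enhancer guide. LOXL1 is required for elastic fibre maintenance in mice, and LOXL3 encodes a further secreted lysyl oxidase. LOXL1 (ENSG00000129038, chromosome 15 from 74218330 to 74244478, plus strand) was at 82.9 and 64.8 RPKM with guide 69 and guide 71 and at 148.9 RPKM with sgRNA-FOXF1, against 71.8 RPKM with sgRNA-NT. With sgRNA-FOXF1 it was 2.07-fold higher (log2 ratio 1.05), and with the enhancer guides the log2 ratios were 0.21 and -0.15, on opposite sides of 0. LOXL1-AS1, an antisense RNA gene overlapping it, was at 7.4, 6.9 and 8.7 RPKM in the targeted libraries and 5.6 RPKM with sgRNA-NT. LOXL3 (ENSG00000115318, chromosome 2 from 74759385 to 74782817, minus strand) was at 19.2, 22.7 and 34.2 RPKM in the targeted libraries, against 17.7 RPKM with sgRNA-NT. Its log2 ratios were 0.12, 0.36 and 0.95, of which the last, 1.93-fold higher, was called. LOXL3 is overlapped on the other strand by HTRA2 (15.8, 17.4 and 17.5 RPKM in the targeted libraries, 14.2 with sgRNA-NT) and DOK1 (3.9, 4.2 and 5.0 RPKM, and 1.5). Whether the counting used strand is not stated, so reads of such pairs may not have been told apart.

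Summed over the 5 lysyl oxidase genes, the level was 370.6, 299.7 and 464.9 RPKM with guide 69, guide 71 and sgRNA-FOXF1, against 508.8 RPKM with sgRNA-NT. With sgRNA-FOXF1 the sum was 0.914 of that with sgRNA-NT, while its make-up differed. LOXL2 made up 57.0%, 54.9% and 44.7% of the sum in the targeted libraries and 70.1% with sgRNA-NT. LOXL1 supplied 22.4%, 21.6% and 32.0%, against 14.1% with sgRNA-NT, so its share was larger also with guide 71, where its level was below that with sgRNA-NT. LOXL4 supplied 4.07%, 7.64% and 6.47%, against 1.61% with sgRNA-NT. The ratio of LOXL2 to LOXL4 was 14.0, 7.19 and 6.90 in the targeted libraries and 43.5 with sgRNA-NT. LOX held 11.4%, 8.24% and 9.46%, against 10.7%, although its level differed up to 2.20-fold.

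Both lysyl hydroxylases of the set lay below their sgRNA-NT level in each targeted library, PLOD1 farthest with guide 71 and PLOD2 farthest with sgRNA-FOXF1. PLOD1 hydroxylates lysine in the helical part of collagen, and its loss causes the kyphoscoliotic form of Ehlers-Danlos syndrome. PLOD1 (ENSG00000083444, chromosome 1 from 11994262 to 12035595, plus strand) was at 83.8, 71.7 and 112.5 RPKM with guide 69, guide 71 and sgRNA-FOXF1, against 159.5 RPKM with sgRNA-NT. The enhancer guides lay 1.90-fold and 2.22-fold lower (log2 ratios -0.93 and -1.15), and they differed from each other by a log2 of -0.22, within the yardstick of 0.29. With sgRNA-FOXF1 the log2 ratio was -0.50, short of the call. PLOD2 hydroxylates lysine in the telopeptides, the ends of the collagen molecule at which cross-links start. PLOD2 (ENSG00000152952, chromosome 3 from 145752926 to 145881512, minus strand) was at 7.1, 6.3 and 4.5 RPKM in the targeted libraries, against 9.9 RPKM with sgRNA-NT. It was 2.20-fold lower with sgRNA-FOXF1 (log2 ratio -1.14), and the log2 ratios with the enhancer guides were -0.48 and -0.65. The call with guide 71 (1.57-fold lower) was lost with a pseudocount of 1 RPKM, at -0.58, and after correction for transcript length, at -0.57.

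PLOD3, the remaining lysyl hydroxylase gene, followed neither of them with sgRNA-FOXF1. Its protein also transfers glucose to hydroxylysine that already carries galactose. PLOD3 was at 25.7, 21.9 and 37.1 RPKM in the targeted libraries and 35.4 RPKM with sgRNA-NT, with log2 ratios of -0.46, -0.69 and 0.07. The 3 lysyl hydroxylase messages summed to 116.6, 99.9 and 154.1 RPKM, against 204.8 RPKM with sgRNA-NT. PLOD1 held 71.9%, 71.8% and 73.0% of that sum and 77.9% with sgRNA-NT. PLOD2 held 6.09% and 6.31% with the enhancer guides and 2.92% with sgRNA-FOXF1, against 4.83% with sgRNA-NT. The ratio of PLOD1 to PLOD2 was therefore 11.8 and 11.4 with the enhancer guides and 25.0 with sgRNA-FOXF1, against 16.1 with sgRNA-NT. Their transcripts differ in GC content (58.8% for PLOD1 and 37.7% for PLOD2), and this ratio was not corrected for it.

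The catalytic subunits of prolyl 4-hydroxylase were not called in any library. P4HA1 (ENSG00000122884, chromosome 10 from 74766975 to 74856732, minus strand) was at 14.7, 19.4 and 19.9 RPKM with guide 69, guide 71 and sgRNA-FOXF1, against 18.6 RPKM with sgRNA-NT. P4HA1 had log2 ratios of -0.34, 0.06 and 0.10, so guide 69 stood apart from the other libraries. P4HA2 (ENSG00000072682, chromosome 5 from 131525840 to 131631008, minus strand) was at 19.3, 20.3 and 24.2 RPKM, against 20.2 RPKM with sgRNA-NT. P4HA2 had log2 ratios of -0.07, 0.01 and 0.26, beside SDs of these ratios over the compared genes of 0.48, 0.63 and 0.58. PDLIM4 (9.2, 12.0 and 12.2 RPKM, against 9.4 with sgRNA-NT) and SLC22A4 (7.2, 9.3 and 7.1 RPKM, against 5.5) overlap P4HA2 on the opposite strand. With no replicates, an absence of change in these messages is not shown. P4HA3, the remaining catalytic subunit gene, was at the floor of 1 RPKM in each library. Of the summed RPKM of these subunit genes, P4HA2 held 55.1%, 49.9% and 53.7%, against 50.8% with sgRNA-NT.

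The shared partner subunit P4HB, a protein disulfide isomerase, was far more abundant than the catalytic subunits. P4HB was at 346.6, 305.2 and 476.9 RPKM in the targeted libraries, against 532.0 RPKM with sgRNA-NT. Its log2 ratios were -0.62, -0.80 and -0.16, lower with both enhancer guides by the 1.5-fold rule. P4HB over the sum of P4HA1 and P4HA2 gave ratios of 10.2, 7.69 and 10.8, against 13.7 with sgRNA-NT.

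SERPINH1, which encodes the procollagen chaperone HSP47, was above its control level in each targeted library. SERPINH1 (ENSG00000149257, chromosome 11 from 75273101 to 75283828, plus strand) was at 104.2 RPKM with guide 69, 99.0 with guide 71 and 150.8 with sgRNA-FOXF1, against 74.6 with sgRNA-NT. It was 2.02-fold higher with sgRNA-FOXF1 (log2 ratio 1.02) and was called there. With the enhancer guides the log2 ratios were 0.48 and 0.41, not called, and the guides differed from each other by -0.07. SERPINH1 has the shortest canonical transcript of the set (2058 nt). Corrected for transcript length, its log2 ratios were 0.32, 0.22 and 0.82.

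The collagen messages themselves, the substrates of these enzymes, were mostly lower. Of 15 collagen and elastin genes listed as substrates, 12 could be compared. With guide 69, guide 71 and sgRNA-FOXF1, 10, 10 and 7 of them were called lower and 0, 0 and 1 higher, with median log2 ratios of -1.17, -1.36 and -0.95. COL12A1, a fibril-associated collagen, was at 8.6, 5.7 and 7.0 RPKM, against 33.4 RPKM with sgRNA-NT, and the basement membrane chain COL4A1 was at 21.7, 17.2 and 12.0 RPKM, against 59.1. COL1A1, the main chain of type I collagen, was at 53.7 and 42.5 RPKM with the enhancer guides and 115.6 RPKM with sgRNA-FOXF1, against 120.6 RPKM with sgRNA-NT. COL3A1, the type III chain, was the exception called higher with sgRNA-FOXF1, at 58.5 RPKM against 32.3 with sgRNA-NT.
Set against the summed collagen messages (14 chains, a ratio chosen after the values were seen), SERPINH1 was at 11.1, 10.4 and 11.8 per 100 RPKM in the targeted libraries and at 4.18 with sgRNA-NT. The collagen sum was 936.2, 949.3 and 1276.6 RPKM, against 1783.9 RPKM with sgRNA-NT. Its largest parts with sgRNA-NT were COL6A2 (449.6 RPKM), COL6A1 (337.0 RPKM) and COL1A2 (287.0 RPKM). Over COL1A1 alone, SERPINH1 gave ratios of 1.94, 2.33 and 1.30, against 0.619 with sgRNA-NT. These ratios between genes were not corrected for transcript length. Collagen transcripts are long, and after correction for transcript length the medians of the 12 compared chains were -0.89, -0.91 and -0.43.

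The enhancer guides served as a comparison of libraries with a shared target. Between guide 71 and guide 69, LOXL4 was called higher (2.41% of compared genes) and LOX lower (2.84%). LOX was at 24.7 RPKM with guide 71 and 42.2 RPKM with guide 69, and LOXL4 at 22.9 and 15.1 RPKM. LOX, LOXL1, LOXL2, LOXL4 and P4HA1 (5 genes) differed between the guides by more than 0.29 on the log2 scale. Over the compared genes the 10th and 90th percentiles of this difference were -0.35 and 0.32. The share of compared genes past 0.29 is not given, so the count of 5 describes these genes only. The median over the 10 genes was -0.12, beside 0.00 over the compared genes. The values read for LOX and LOXL4 thus differ by guide, with log2 ratios to sgRNA-NT of -1.14 or -0.36 for LOX and 1.48 or 0.88 for LOXL4. LOXL4 was called higher with both guides. With 1 library per guide, a difference between guides cannot be told apart from a difference between libraries.

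Set against both enhancer guides rather than sgRNA-NT, sgRNA-FOXF1 gave higher levels for 9 of the 10 genes, as it did for 3551 of the 7596 compared genes. LOXL1, LOXL3 and LOXL4 (3 genes) were called higher than the mean log2 level of the enhancer guides (5.86% of compared genes), and 0 were called lower (3.54%). The log2 differences were 1.02 for LOXL1, 0.71 for LOXL3 and 0.69 for LOXL4. SERPINH1 followed at 0.57 and PLOD1 at 0.54, both short of the call. PLOD2 was the exception at -0.57, with 4.5 RPKM with sgRNA-FOXF1 against 7.1 and 6.3 RPKM with guide 69 and guide 71. The median over the 10 genes was 0.49, beside -0.03 over the compared genes.

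Transcripts differ in base composition, and this was set beside the difference gene by gene. Over 7566 compared genes, the log2 difference between sgRNA-FOXF1 and the enhancer guides had a Spearman correlation of 0.60 with transcript GC content, and over the 10 genes it was 0.62, given as descriptions since genes of a library are not replicates. LOXL1 has the highest GC content of the set (67.0%) and PLOD2 the lowest (37.7%), and they held the highest and the lowest difference. After correction for GC content, LOXL1 stood at 0.62, LOXL3 at 0.59 and LOXL4 at 0.53, LOXL2 at -0.01 and P4HA2 at 0.51. PLOD2 stood at -0.375, against -0.572 without the correction. SERPINH1 stood at 0.37 and PLOD1 at 0.34, against 0.57 and 0.54, and P4HA1 at 0.47, against 0.24. LOXL4 was then short of the call and LOX, at 0.68, past it. The median over the 10 genes was 0.49 with the correction as without it. The part of GC content in the differences was not tested beyond this correction.

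**Figure D3:**
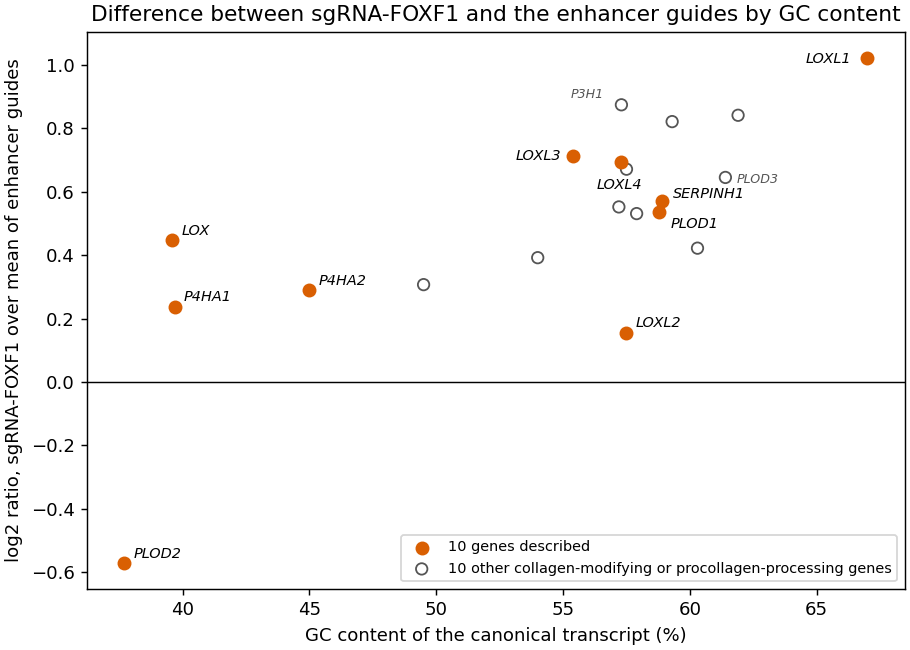
Log2 difference between sgRNA-FOXF1 and the mean of the enhancer guides (vertical axis) against GC content of the canonical transcript in percent (horizontal axis) for the 10 genes (filled, named) and 10 other genes of collagen modification or procollagen processing (open). LOXL1 lies at the top right (67.0% GC, 1.02) and PLOD2 at the bottom left (37.7% GC, -0.57).

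Transcript length moved with the ratios to sgRNA-NT. Over the compared genes the Spearman correlation of the log2 ratio with transcript length was -0.50, -0.44 and -0.45 for guide 69, guide 71 and sgRNA-FOXF1, and it was -0.02 for sgRNA-FOXF1 against the enhancer guides. The 10 genes have canonical transcripts of 2058 to 5076 nt, around a median of 2902 nt over the compared genes. After correction for length, LOXL4 stood at 0.94, 1.55 and 1.94, LOXL2 at -0.69, -1.03 and -0.70, and PLOD1 at -0.94, -1.15 and -0.53. LOX, with the longest transcript of the set, moved more than these. It stood at -0.18, -0.93 and -0.08, against -0.36, -1.14 and -0.30 without the correction. Its ratio with sgRNA-FOXF1 was also -0.08 after correction for GC content.

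The other genes of collagen modification and folding were mostly below their sgRNA-NT level with the enhancer guides. Of 25 such genes outside the set, 22 were compared. With guide 69, 1 was called higher and 7 lower, with guide 71 1 and 5, and with sgRNA-FOXF1 2 and 6, with medians of -0.36, -0.46 and -0.001. In direction, 20 of the 22 were below sgRNA-NT with each enhancer guide, beside 3232 and 3282 of the 7596 compared genes with guide 69 and guide 71, and 11 were with sgRNA-FOXF1, beside 3370. P3H2, a prolyl 3-hydroxylase, was at 21.8 and 26.3 RPKM with guide 69 and guide 71 and at 10.8 RPKM with sgRNA-FOXF1, against 48.6 RPKM with sgRNA-NT. The chaperone gene HSP90B1 was at 55.1, 50.6 and 54.2 RPKM, against 104.5 RPKM with sgRNA-NT. FKBP7, a peptidyl-prolyl isomerase of the endoplasmic reticulum, was the gene called higher in each targeted library, at 5.4, 5.7 and 6.0 RPKM, against 3.2 RPKM with sgRNA-NT.
P3H1, CRTAP and PPIB encode a complex that hydroxylates and isomerizes proline in collagen chains. P3H1 was at 15.3, 11.4 and 24.2 RPKM, against 16.9 RPKM with sgRNA-NT, and CRTAP at 56.3, 50.1 and 65.7 RPKM, against 65.8. PPIB was at 670.2, 670.2 and 879.6 RPKM, against 553.4 RPKM with sgRNA-NT, and was called higher with sgRNA-FOXF1 (log2 ratio 0.67). Without correction, the partners of this complex thus had ratios of either sign with the enhancer guides. PPIB has a short canonical transcript (893 nt). Corrected for transcript length, its log2 ratios were -0.06, -0.10 and 0.35, the last short of the call. The corrected ratios of CRTAP were 0.07, -0.04 and 0.35, and those of P3H1 -0.21, -0.63 and 0.43. FKBP10, an isomerase needed for telopeptide lysine hydroxylation, was at 136.5, 124.2 and 230.1 RPKM, against 175.4 RPKM with sgRNA-NT. COLGALT1, which adds galactose to hydroxylysine, was at 57.1, 49.1 and 76.5 RPKM, against 59.3 RPKM. Against the mean of the enhancer guides, sgRNA-FOXF1 was higher for 16 of the 22 genes and lower for 6, beside 3551 higher of the 7596 compared genes. Of the 22, 5 were called higher (5.86% of compared genes) and 2 lower (3.54%), P3H2 (log2 difference -1.15) and FKBP14 (-0.92).

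**Figure D4:**
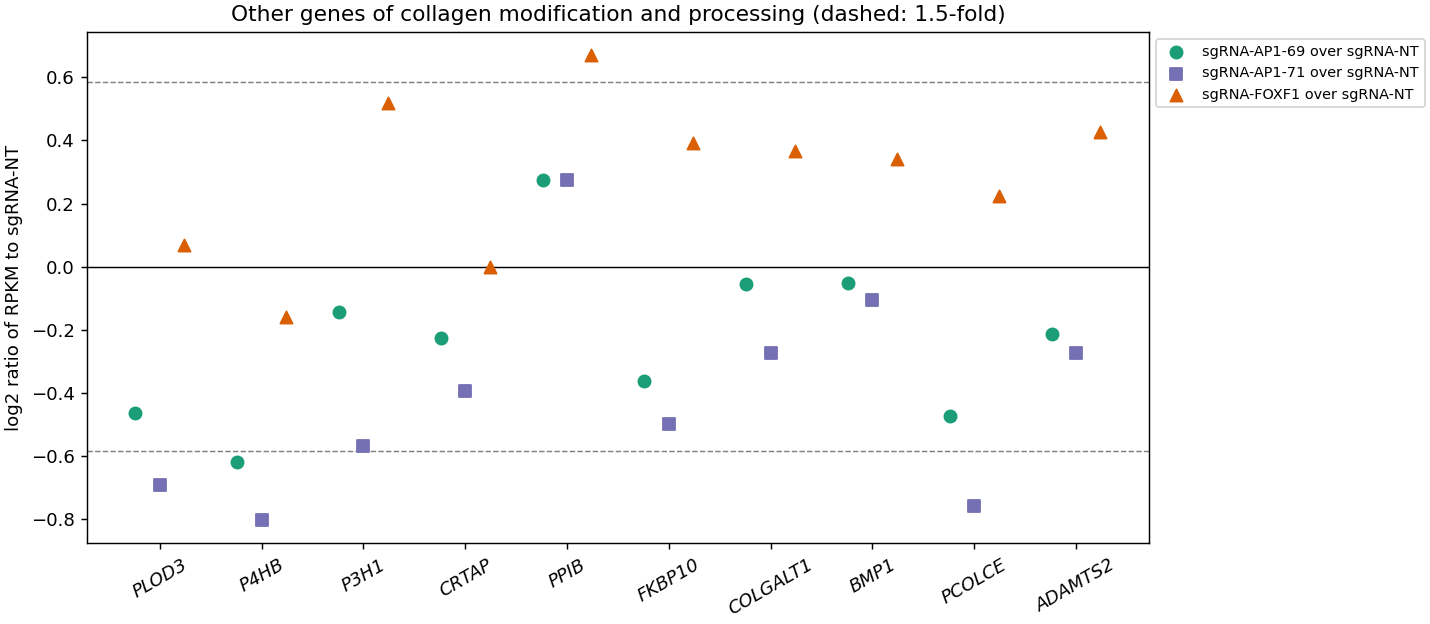
Log2 ratio of RPKM of each targeted library to sgRNA-NT (vertical axis) for 10 other genes of collagen modification or procollagen processing, with circles for guide 69, squares for guide 71, triangles for sgRNA-FOXF1 and dashed lines at 1.5-fold. For these 10 genes the triangle lies above both other symbols, and PPIB alone has its circle and square above 0 (both 0.28, without correction for transcript length).

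Procollagen is trimmed outside the cell before lysyl oxidases act on it. The C-proteinase gene BMP1 was at 5.4, 5.2 and 7.1 RPKM in the targeted libraries, against 5.6 RPKM with sgRNA-NT, and the N-proteinase gene ADAMTS2 at 2.5, 2.4 and 3.9 RPKM, against 2.9. PCOLCE, which enhances BMP1, was at 38.8, 31.9 and 63.0 RPKM, against 53.9 RPKM, and was called lower with guide 71 (log2 ratio -0.76). Of 13 compared genes of processing and fibril assembly, 1, 2 and 3 were called higher and 4, 6 and 4 lower with guide 69, guide 71 and sgRNA-FOXF1. LUM, a small proteoglycan of collagen fibrils, was at 8.3, 7.9 and 13.1 RPKM, against 2.3 RPKM with sgRNA-NT. FN1, the fibronectin gene, was at 53.9, 33.1 and 71.6 RPKM, against 151.4, and PXDN, which cross-links collagen IV by a sulfilimine bond, at 44.0, 35.0 and 38.9 RPKM, against 123.5.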

How the data were processed

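mRNA was sequenced from 4 libraries, 1 per condition. According to the study's methods and the submitters' processing notes, reads were aligned to hg19 with TopHat2 and counted with HTSeq, and the authors converted the counts to RPKM with GENCODE annotation, quantile-normalized them and set a floor of 1. Tool versions are not stated in these sources. The study's text names Trisure and a stranded TruSeq kit, the labels Trizol, Oligotex and a TruSeq RNA kit. The deposited log2 ratios of the authors (3 columns) were not used, and 0 columns of values were unmatched. Log2 ratios were computed from RPKM without a pseudocount for genes averaging 2 RPKM or more, and a difference was called at 1.5-fold without a test. Length and GC content are those of canonical transcripts of GENCODE lifted to GRCh37 (99.6% of compared genes), with corrections by a cubic spline with 5 knots. The length correction was tested on simulated data with a linear effect of length, and the GC correction was not tested in this way. Beside the 10 genes, a fixed group of related genes and up to 3 compared genes per list, those of largest mean absolute log2 ratio, were named. The genes and lists were chosen with earlier results of these data known. Python 3.11.15, numpy 2.4.6, pandas 2.3.3, scipy 1.17.1 and matplotlib 3.10.9 were used.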

Additional observations from a re-analysis of the deposited data

How the results depend on the processing

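In the 3 comparisons with sgRNA-NT, the number of genes called was within 1.5 times of the main count under a pseudocount of 1 RPKM, centring on the median of compared genes, correction for transcript length or GC content (the last added after the data were seen), no minimum level or a minimum mean of 5 RPKM. With a 2-fold rule, the counts with sgRNA-AP1-69 were 0 higher and 0 lower, and 1 gene was lower with sgRNA-FOXF1. Single calls moved as follows: PLOD1 with sgRNA-FOXF1 gained a call after GC correction (-0.73), and PLOD2 with sgRNA-AP1-71 lost it under a pseudocount (-0.58) and length correction (-0.57). LOXL1 with sgRNA-AP1-71 stood at 0.18 after GC correction, and P4HA1 (-0.02 on centring) and P4HA2, near 0, changed sign under some settings. Corrections for GC content shifted the log2 ratios by -0.22 to 0.33. Setting floor values to 0 took P4HA3 out of its family's sum. No paired analysis was possible because each condition has 1 library. With depth unknown, no counting error can be given for the lower genes, PLOD2 and LOXL4.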

Other observations

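Genes that serve the enzymes from outside the pathway were read beside the shares of compared genes called. These were 8.18%, 14.0% and 11.6% higher and 9.93%, 14.7% and 13.2% lower with guide 69, guide 71 and sgRNA-FOXF1. Of 16 compared genes of procollagen export, 0 were called higher in any targeted library and 2, 4 and 3 were called lower with guide 69, guide 71 and sgRNA-FOXF1. The median log2 ratios of the 16 genes were -0.205, -0.033 and -0.297 in that order. CREB3L2, a transcription factor for secretory genes, was at 7.7, 7.5 and 7.1 RPKM, against 16.7 RPKM with sgRNA-NT. The coat genes SEC24A (3.6, 3.2 and 3.4 RPKM, against 6.7) and SEC24B (3.8, 4.1 and 3.6, against 5.6) were the next by size of ratio. Of 7 compared genes of copper, iron and ascorbate supply, 0 were called higher and 2, 3 and 4 lower. In direction, 4 of the 7 were below sgRNA-NT and 3 above it in each targeted library. The 3 above it were ATOX1 (17.4, 15.0 and 18.2 RPKM, against 13.0), SLC31A2 (8.8, 7.7 and 7.4, against 6.7) and SLC2A3 (7.7, 8.6 and 7.3, against 6.1). SLC2A1, which carries glucose and dehydroascorbate, was at 53.3, 45.7 and 32.9 RPKM, against 98.0 RPKM with sgRNA-NT. The transferrin receptor gene TFRC was at 10.6, 11.1 and 10.0 RPKM, against 20.1, and the ascorbate transporter gene SLC23A2 at 3.6, 3.4 and 3.2 RPKM, against 5.2.

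Hypoxia and TGF-beta are known regulators of collagen-modifying enzymes. The counts for genes induced by either are read beside the shares of compared genes given above. Of 24 compared hypoxia-induced genes, a list that itself holds LOX, LOXL2, PLOD2, P4HA1 and P4HA2, 1, 7 and 3 were called higher and 6, 8 and 7 lower with guide 69, guide 71 and sgRNA-FOXF1. CA12, a carbonic anhydrase gene, was at 2.0, 4.0 and 5.4 RPKM and at the floor of 1 RPKM with sgRNA-NT, and HK2, a hexokinase gene, at 18.9, 17.1 and 13.0 RPKM, against 41.6. Of 15 compared TGF-beta-induced genes, which share FN1, COL1A1 and COL4A1 with the lists above, 1, 1 and 0 were called higher and 7, 8 and 7 lower. ITGB1, an integrin gene, was at 120.6, 96.1 and 113.6 RPKM, against 283.1 RPKM with sgRNA-NT.

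Likeness of pattern was measured as the distance between the 3 log2 ratios to sgRNA-NT, over genes averaging 5 RPKM or more. LOX was nearest to PLAT (tissue plasminogen activator, distance 0.10), and its nearest neighbour within the set was PLOD1 (0.60). LOXL4 was nearest to MSX1 (0.17), at 16.7, 24.7 and 37.0 RPKM, against 9.7 RPKM with sgRNA-NT, and SERPINH1 to VKORC1 (0.07). PLOD1 was nearest to LAMB1 (0.11), with CTSB and CTSA, genes of lysosomal cathepsins, next. LOXL2 was nearest to F3 (0.08) and PLOD2 to TAF13 (0.04). These distances rest on 3 ratios with a shared denominator and describe 4 libraries.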
